A study of Mus musculus with 21 samples.

Results

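The fibroblast-like barcodes described here were selected by transcripts of Kcnk2, Adamdec1, Ces1d, Fndc1 and Scube1 in a single-cell library of mouse colon stroma. A barcode was a member when at least 3 of these 5 marker genes had a UMI (unique molecular identifier, a count of 1 captured transcript), Ebf1 had none, and fewer than 2 of Ces1f, Ces1g, S1pr3 and Ch25h were detected. Barcodes were kept from 500 genes upward and up to 10% of UMIs from mitochondrial genes, and 3374 of the 11376 kept were members, a share of 29.7% with an exact 95% binomial interval of 28.8 to 30.5%. The other 8002 kept barcodes are the group the members are set against. Since the members were chosen by their counts, every level and ratio below describes these barcodes and carries no test.

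Fibroblasts of the intestinal lamina propria, the connective tissue under the epithelium, lay down collagen and basement membrane. They also release Wnt, BMP and chemokine signals to neighbouring epithelial and immune cells. Adamdec1 encodes a secreted metalloprotease of the ADAM family that is known from gut stroma and macrophages, and Kcnk2 encodes the mechanosensitive background potassium channel TREK-1. Ces1d encodes a carboxylesterase that hydrolyses lipid esters, Scube1 a secreted protein with EGF-like repeats, and Fndc1 a protein with fibronectin-like domains.

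The series, which concerns Map3k2-regulated intestinal stromal cells (MRISC), comprised 21 mouse samples in 9 groups, of which 1 droplet library and 4 sets of ATAC-seq peak lists were used. The droplet library came from colon of female wild-type C57BL/6 at 12 weeks, given 2% DSS (dextran sulfate sodium, which damages the colon lining) and taken at D3, and its cells were the total stromal gate positive for gp38 (the product of Pdpn) and CD90 (the product of Thy1). The peak lists came from MRISC, CD34 SP, CD138 and Myofibroblast cells of male C57BL/6 colon at 12 weeks, with 2 libraries behind each population and no treatment named in the labels. Bulk colon libraries of both genotypes were not analysed here.

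With 1 library there is no replicate check, the number of animals behind it is not given, and all intervals are 95% and cover counting error only. Members held 23239079 UMIs and the other kept barcodes 49681118. The median depth was 6361 UMIs and 2393.5 genes in members, against 5880 UMIs and 2237 genes in the other kept barcodes, and the median mitochondrial share was 1.34% in both. Depth moved with membership: 12.1% of barcodes under 3000 UMIs were members, against 38.4% of those with 10000 or more. When every barcode of at least 3000 UMIs was thinned to that number, 2102 barcodes met the rule, and 1858 of them were members before thinning. Thinning left out 89 members and 647 other kept barcodes as too shallow.

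Adamdec1 was the most widely detected of the 5 markers and Kcnk2 the least. Pooled Kcnk2 stood at 140.7 CPM (counts per 1000000 pooled UMIs) in members and 34.1 CPM in the other kept barcodes, and 43.0% of members had a UMI of it, against 10.3% of the others. Adamdec1 stood at 7058 CPM in members and 3274 CPM in the others, with a UMI in 99.8% of members and 94.8% of the others. The Adamdec1 condition therefore separated few barcodes. Ces1d stood at 445 CPM in members and 156 CPM in the others, Scube1 at 193 against 66.2 CPM, and Fndc1 at 131 against 56.8 CPM. After thinning to equal depth, Kcnk2 was detected in 28.5% of members and 6.66% of the others, Ces1d in 59.7% against 20.7%, Scube1 in 45.9% against 15.5%, and Fndc1 in 32.8% against 12.0%.

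The absence genes were lower in members by pooled level, which the rule shapes, but not all by detection. Ebf1, which encodes an early B-cell factor, was at 97.0 CPM in the other kept barcodes and at 0 in members by the rule. Ces1f stood at 4.30 CPM in members and 12.3 CPM in the others, Ces1g at 42.4 against 48.3 CPM, S1pr3 at 10.2 against 13.9 CPM, and Ch25h at 22.7 against 33.7 CPM. Ces1g had a UMI in 15.3% of members and 12.3% of the others. S1pr3 had one in 5.60% against 6.31%, Ch25h in 8.24% against 11.1% and Ces1f in 1.22% against 2.56%. Ces1d, Ces1f and Ces1g are neighbouring copies of 1 gene family, so their counts are uncertain where reads match more than 1 copy. Of the 4521 kept barcodes with at least 3 markers, 632 had Ebf1, 534 had 2 or more of the 4 other absence genes, and 19 of these met both grounds.

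**Figure D1:**
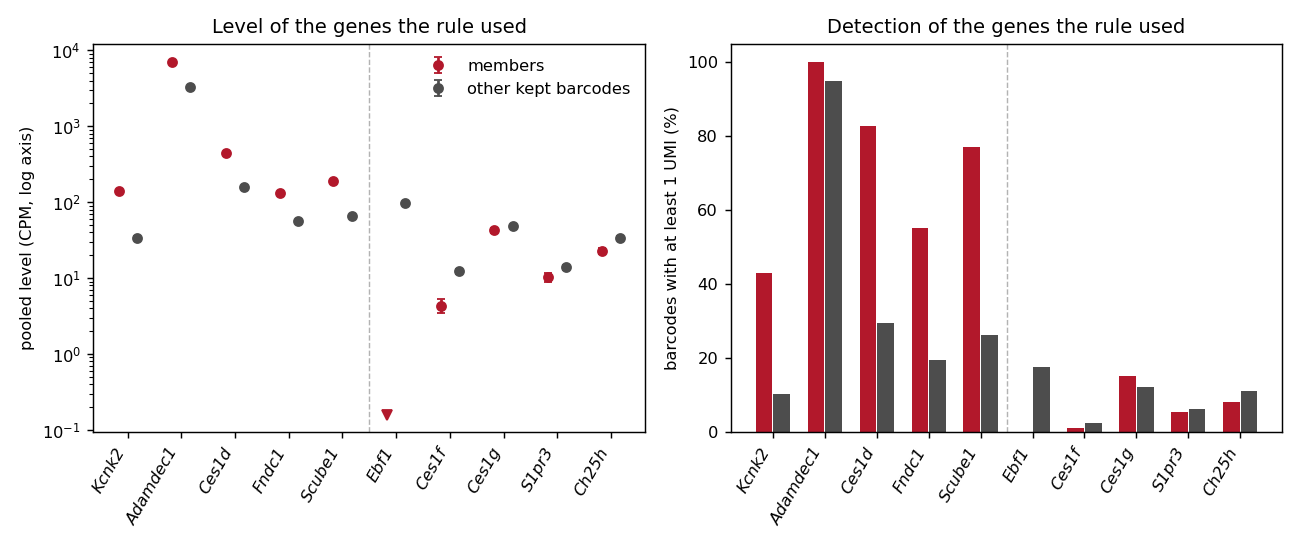
Pooled level in CPM on a log axis (left) and share of barcodes with at least 1 UMI (right) for the 5 marker genes and, right of the dashed line, the 5 absence genes, in members (red) and other kept barcodes (grey); bars on points are 95% counting intervals and the triangle is the upper bound for Ebf1 in members. Adamdec1 was detected in 99.8% of members and 94.8% of the others, whereas Kcnk2 was detected in 43.0% of members and 10.3% of the others.

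Free RNA bears on these detections. Adamdec1 made up 7058 CPM in members, against 4836 CPM in 546978 raw barcodes with 1 to 100 UMIs, taken as empty droplets, and Kcnk2 140.7 CPM in members, against 41.9 CPM in empty droplets. Members, at a median of 6361 UMIs, had a UMI of Kcnk2 in 43.0%, of Fndc1 in 55.1%, of Scube1 in 77.0% and of Ces1d in 82.7%. The rule itself raises these shares. In the 34 barcodes with at least 3 epithelial markers, at a median of 16630 UMIs, 97.1% had a UMI of Adamdec1, 41.2% of Ces1d, 26.5% of Scube1 and 8.82% each of Fndc1 and Kcnk2. A UMI of Adamdec1 by itself therefore says little about a barcode. These epithelial barcodes also had a UMI of Dcn in 97.1%, and free RNA and mixed droplets could not be told apart in them.

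Most members carried the smallest allowed number of markers. Exactly 3 markers were found in 1892 members (56.1%), 4 in 1020 (30.2%) and all 5 in 462 (13.7%). The commonest set was Adamdec1, Ces1d and Scube1 without the other 2, in 921 members (27.3%), followed by all 5 and then by Adamdec1, Ces1d, Fndc1 and Scube1 in 411 members. Each marker was also read in barcodes chosen by at least 3 of the other 4, under the same absence conditions. The 5 were picked as a set with earlier results of these data known. The values therefore describe the set and are no check that its genes belong together. Kcnk2 then stood at 120 CPM, against 25.4 CPM in the rest (ratio 4.73), Ces1d at 479 against 140 CPM (ratio 3.41), and Fndc1 at 113 against 38.6 CPM (ratio 2.93). Adamdec1 stood at 8572 against 3466 CPM (ratio 2.47) and Scube1 at 173 against 87.4 CPM (ratio 1.98).

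The promoters of 3 marker genes and of Tnc, the named gene with the highest ratio, are shown because open chromatin could be read on them in the 4 sorted populations; Ptx3, the named gene with the lowest ratio, is shown beside them. Sequences are from RefSeq on GRCm38.p6 (the assembly of mm10, on which the peaks are placed), from 250 bases before to 50 bases after the annotated start, 5′ to 3′ on the gene's strand. Capitals mark a GC box (GGGCGG) or a TATA box (TATAAA) on either strand, which 35.7% and 13.6% of the 32851 promoters in the table hold. Such a match is a description of the letters and not a binding site.
Kcnk2, chr1:189343658-189343957, minus strand: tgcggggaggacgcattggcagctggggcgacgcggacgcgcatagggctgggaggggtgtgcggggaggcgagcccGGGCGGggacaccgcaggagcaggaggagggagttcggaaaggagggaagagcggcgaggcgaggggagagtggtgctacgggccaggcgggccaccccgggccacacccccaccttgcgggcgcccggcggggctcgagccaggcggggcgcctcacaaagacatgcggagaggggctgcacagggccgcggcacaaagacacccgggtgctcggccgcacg
Fndc1, chr17:7827253-7827552, minus strand: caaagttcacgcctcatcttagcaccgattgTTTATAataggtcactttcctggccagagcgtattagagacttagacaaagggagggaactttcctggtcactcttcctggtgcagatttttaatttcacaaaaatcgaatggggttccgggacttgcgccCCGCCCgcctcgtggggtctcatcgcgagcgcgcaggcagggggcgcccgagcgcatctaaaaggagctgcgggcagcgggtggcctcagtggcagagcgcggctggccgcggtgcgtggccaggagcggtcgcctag
Scube1, chr15:83724990-83725289, minus strand: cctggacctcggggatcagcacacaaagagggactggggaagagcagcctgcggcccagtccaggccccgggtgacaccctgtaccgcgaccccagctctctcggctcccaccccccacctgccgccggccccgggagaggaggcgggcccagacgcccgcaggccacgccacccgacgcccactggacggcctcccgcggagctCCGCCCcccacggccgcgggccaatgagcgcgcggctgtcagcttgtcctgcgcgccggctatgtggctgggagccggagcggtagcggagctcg
Tnc, chr4:64046966-64047265, minus strand: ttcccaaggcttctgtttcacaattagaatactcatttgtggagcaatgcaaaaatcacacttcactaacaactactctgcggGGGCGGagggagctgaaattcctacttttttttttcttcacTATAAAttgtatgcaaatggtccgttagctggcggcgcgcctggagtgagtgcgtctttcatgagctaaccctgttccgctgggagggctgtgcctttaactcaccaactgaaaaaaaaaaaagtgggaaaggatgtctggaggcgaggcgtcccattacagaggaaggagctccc
Ptx3, chr3:66219637-66219936, plus strand: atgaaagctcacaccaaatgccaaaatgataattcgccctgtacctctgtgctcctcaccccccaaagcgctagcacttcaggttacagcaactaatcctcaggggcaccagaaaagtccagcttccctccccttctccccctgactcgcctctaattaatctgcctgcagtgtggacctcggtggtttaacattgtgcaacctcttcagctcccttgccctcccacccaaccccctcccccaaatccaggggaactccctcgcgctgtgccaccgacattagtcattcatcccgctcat
The Kcnk2 promoter printed is the one of its 4 listed starts with the longest overlap with peaks. All 300 of its bases lay under peaks of MRISC and CD34 SP, 136 under a CD138 peak and 0 under a Myofibroblast peak. Another Kcnk2 start had 119 bases of its promoter under a Myofibroblast peak and 0 under a CD138 peak, and Kcnk2 had a peak within 1 kb of a listed start in all 4 populations. At Fndc1 the overlap was 300 bases for both MRISC and CD34 SP, 284 for CD138, and 0 for Myofibroblast peaks. At Scube1 it was 300, 300, 278 and 291 bases in MRISC, CD34 SP, CD138 and Myofibroblast, and the whole Tnc promoter lay under a peak in all 4. At Ptx3 it was 279 bases in MRISC, 300 in CD34 SP and 0 in CD138 and in Myofibroblast. The letters of AP-1 (TGANTCA), FOX (TGTTTAC) and GLI (TGGGTGGTC) sites, held by 7.81%, 3.65% and 0.253% of promoters, were searched on both strands and are not in the printed windows.

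The label names lamina propria fibroblasts, and the counts bear on the last word only, since they carry no position in the tissue. All 8 pan-fibroblast markers had counts in members. Col3a1 stood at 4734 CPM in members and 4435 CPM in the other kept barcodes, Col1a1 at 2065 against 1787 CPM, Pdpn at 308 against 275 CPM, and Pdgfra, the receptor that marks many gut fibroblasts, at 158 against 152 CPM. Dcn was at 7711 against 8745 CPM and Lum at 894 against 1166 CPM. The median log2 ratio of the 8 was 0.13, against 0.03 over the 6035 genes with at least 20 CPM in either group. Empty droplets held these genes too, Col3a1 at 4501 CPM, Col1a1 at 1663 CPM, Dcn at 8130 CPM, Lum at 1176 CPM, Pdpn at 376 CPM and Pdgfra at 168 CPM, so a count of them alone does not mark a barcode as a fibroblast. Of markers of other cell types, Ptprc (CD45) was at 0.17 CPM in members, Pecam1 (CD31) at 1.55 CPM and Muc2 at 1.12 CPM. Others were detected: Cd74 stood at 103 CPM in members and 137 CPM in the other kept barcodes, Lyz2 at 21.2 against 17.4 CPM, Lgals4 at 17.0 against 32.9 CPM and Krt8 at 14.3 against 29.0 CPM. Summed, the 8 immune markers reached 135 CPM in members and 167 CPM in the others, the 7 epithelial ones 44.7 against 104 CPM, the 6 mesothelial ones 45.6 against 107 CPM, the 6 endothelial ones 1.94 against 2.36 CPM and the 6 glial ones 3.06 against 6.94 CPM. Epcam was at 8.18 CPM in members, 15.8 CPM in the other kept barcodes and 20.1 CPM in empty droplets. No doublets were removed. Of 71 barcodes with at least 3 of 6 mesothelial markers, 14 were members. Members were 7 of 34 barcodes with at least 3 of 7 epithelial markers and 54 of 154 with at least 3 of 8 immune markers. Of all kept barcodes, 29.7% were members, so the rule did not keep such barcodes out.

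Outside the 10 rule genes, few genes stood far above the other kept barcodes. Only 5 of 5894 genes with at least 20 CPM in members were at least 2-fold higher, 0.0848% of those tested, and 64 (1.09%) were at least 1.5-fold higher. The first was Tnc, which encodes the matrix glycoprotein tenascin-C, at 171 CPM in members and 53.3 CPM in the other kept barcodes, a ratio of 3.21 (3.06 to 3.38). It was detected in 31.0% of members and 9.95% of the others after thinning. Of the 5, Lbh, which encodes a transcriptional cofactor, had the highest level in members, at 186 CPM in members and 83.5 CPM in the others, a ratio of 2.22 (2.13 to 2.32). The other 3 had low levels: Ccdc3 stood at 21.7 CPM in members and 7.23 CPM in the others, Wfdc13 at 24.0 against 8.41 CPM, and Il1r2, the decoy receptor of IL-1, at 22.7 against 10.4 CPM.

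The 25 genes named as higher, those with the largest ratios among genes of at least 50 CPM in members, had ratios between 1.54 and 3.21. Among them were inhibitors of Wnt signalling that bind the ligand. Sfrp1 stood at 1044 CPM in members and 649 CPM in the other kept barcodes (ratio 1.61), and Frzb at 58.9 against 31.2 CPM (ratio 1.89). Genes of the matrix and its linking enzymes included Fbln7, a fibulin (59.8 against 32.4 CPM), Col27a1, a fibrillar collagen (99.6 against 58.8 CPM), Lox, which cross-links collagen and elastin (94.4 against 59.7 CPM), and Hmcn2, a hemicentin (68.2 against 41.9 CPM).

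Il34, a ligand of the macrophage receptor CSF1R, stood at 53.8 CPM in members and 29.4 CPM in the other kept barcodes, and Ccl8, a chemokine for monocytes, at 207 against 129 CPM. Ggt5, an enzyme that cleaves leukotriene C4 and glutathione, stood at 131 against 72.4 CPM. Msc, the transcription factor musculin, stood at 62.0 against 35.9 CPM. Adgre5 (CD97) stood at 86.1 against 51.8 CPM, the Slit receptor Robo2 at 93.7 against 59.8 CPM, Tril, an accessory protein of Toll-like receptors, at 84.7 against 52.7 CPM, and Alpl, tissue-nonspecific alkaline phosphatase, at 73.7 against 46.3 CPM. Sept4, a septin, stood at 284 against 177 CPM. Adap2, Mab21l2, Amacr, Emid1, Vstm4, Slco2b1 and Itpripl2 had ratios from 1.54 to 1.91. Empty droplets held these genes too, Tnc at 87.2 CPM, Lbh at 98.5 CPM and Sfrp1 at 609 CPM. The margin was wide for some, such as Adap2, at 52.1 CPM in members and 24.5 CPM in empty droplets. It was narrow for several others. Hmcn2 stood at 68.2 CPM in members and 65.9 CPM in empty droplets, Sept4 at 284 and 270 CPM, Msc at 62.0 and 57.6 CPM and Slco2b1 at 73.9 and 68.0 CPM. Emid1 was at 55.4 CPM in members and at 65.0 CPM in empty droplets.

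**Figure D2:**
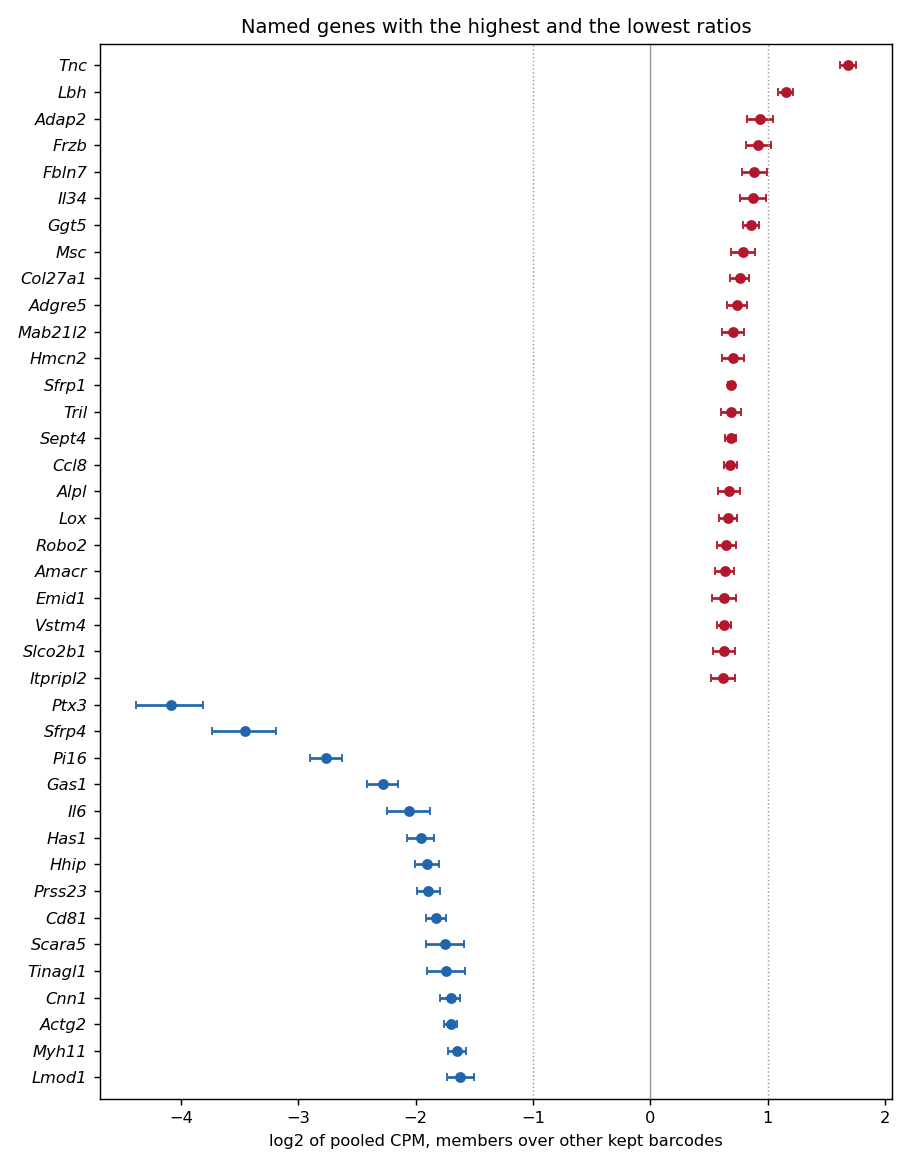
Log2 ratio of pooled CPM, members over other kept barcodes, for 24 of the 25 named genes with the highest ratio (red) and the 15 with the lowest (blue), with 95% counting intervals; dotted lines mark 2-fold. Tnc and Lbh lie beyond the upper dotted line, and all 15 lower genes lie beyond the lower one, Ptx3 farthest at -4.09.

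More genes were low in members than high: 58 of 5820 genes with at least 20 CPM in the other kept barcodes were at least 2-fold lower, 0.997% of those tested, and 134 (2.3%) at least 1.5-fold lower. The lowest ratio was that of Ptx3, a secreted pattern-recognition pentraxin, at 4.52 CPM in members and 76.9 CPM in the other kept barcodes, a ratio of 0.059 (0.048 to 0.071). Sfrp4, another Wnt antagonist, stood at 5.03 against 55.3 CPM, Pi16, a marker of adventitial fibroblasts, at 20.2 against 137 CPM, Gas1, a hedgehog co-receptor, at 21.0 against 102 CPM, Has1, a hyaluronan synthase, at 29.6 against 115 CPM, and the tetraspanin Cd81 at 56.7 against 201 CPM. Genes of secretory epithelium and plasma cells were also among the 58, Spink4 at 3.53 against 46.9 CPM, Agr2 at 3.27 against 34.5 CPM and Jchain at 47.3 against 120 CPM, the last at 167 CPM in empty droplets. Spink4 had a UMI in 2.25% of members and 2.11% of the others. Il6 stood at 12.0 against 50.2 CPM, the protease Prss23 at 40.4 against 150 CPM and the ferritin receptor Scara5 at 15.7 against 52.9 CPM. The Ebf1 condition set the direction of several of these. With Ebf1 left out of the rule, 33 genes were at least 2-fold lower, and the log2 ratio was 0.079 for Pi16, 0.15 for Has1 and 0.21 for Prss23, so that these stood slightly above the others. Ptx3 and Sfrp4 were high in cluster 5, described further on, at 452 and 312 CPM. In all kept barcodes outside that cluster they were at 3.90 and 5.09 CPM. Members, at 4.52 and 5.03 CPM, were near those levels, so low Ptx3 and Sfrp4 were not particular to members.

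The low genes also held 3 of the 7 measured markers of CD34+CD81+ fibroblasts at 2-fold (Cd81, Pi16 and C3), and the median log2 ratio of that list was -0.37, with Cd34 itself at 359 CPM in members and 464 CPM in the other kept barcodes. Contractile genes were also low. Myh11, smooth muscle myosin, stood at 68.1 CPM in members and 214 CPM in the other kept barcodes, Actg2, enteric smooth muscle actin, at 145 against 471 CPM, Cnn1, calponin, at 55.0 against 179 CPM, and Lmod1, leiomodin, at 30.5 against 93.9 CPM. Hhip, the hedgehog-binding decoy, stood at 35.9 against 135 CPM and Tinagl1, a matrix protein, at 15.6 against 52.2 CPM. Of the 8 smooth muscle markers, 6 were at least 2-fold lower and the median log2 ratio was -1.48. Summed over the list, they reached 1611 CPM in members and 3826 CPM in the other kept barcodes. Acta2 stood at 725 against 1557 CPM, while after thinning 44.4% of members and 44.0% of the others had a UMI of it. At least 4 of these markers were present in 497 members (14.7%) and 1518 of the others (19.0%). Without such barcodes the log2 ratio was 0.068 for Myh11, 0.059 for Lmod1 and 0.16 for Tinagl1, and 44 genes were at least 2-fold lower. Of the 1038 barcodes with at least 6 of the 8 markers, 119 were members, and 130 of the 1142 barcodes of a cluster led by Myh11, described further on, were members (3.85% of all members).

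The levels changed with the number of markers, counted in barcodes that met the absence conditions. Just inside the rule, at 3 markers, Tnc stood at 94.9 CPM, and just outside it, at 2 markers, at 38.8 CPM. Across 0 to 5 markers, Tnc took 22.8, 26.0, 38.8, 94.9, 241 and 302 CPM, Lbh 68.3, 57.7, 73.6, 137, 230 and 270 CPM, and Sfrp1 495, 597, 686, 859, 1143 and 1499 CPM. Ggt5 went up at each step, between 29.0 CPM at 0 markers and 181 CPM at 5. Pdgfra took 101, 120, 143, 158, 161 and 151 CPM, so members with 3, 4 and 5 markers had like levels of this fibroblast gene. Cd34 was at 408 CPM with 3 markers and 290 CPM with 5. Actg2 was at 187 CPM with 3 markers and 76.3 CPM with 5, and Pi16 at 26.2 and 9.30 CPM. The median depth was 3990 UMIs at 0 markers, 6016 at 2, 6279 at 3 and 6690.5 at 5, and its part in these levels was not tested.

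**Figure D3:**
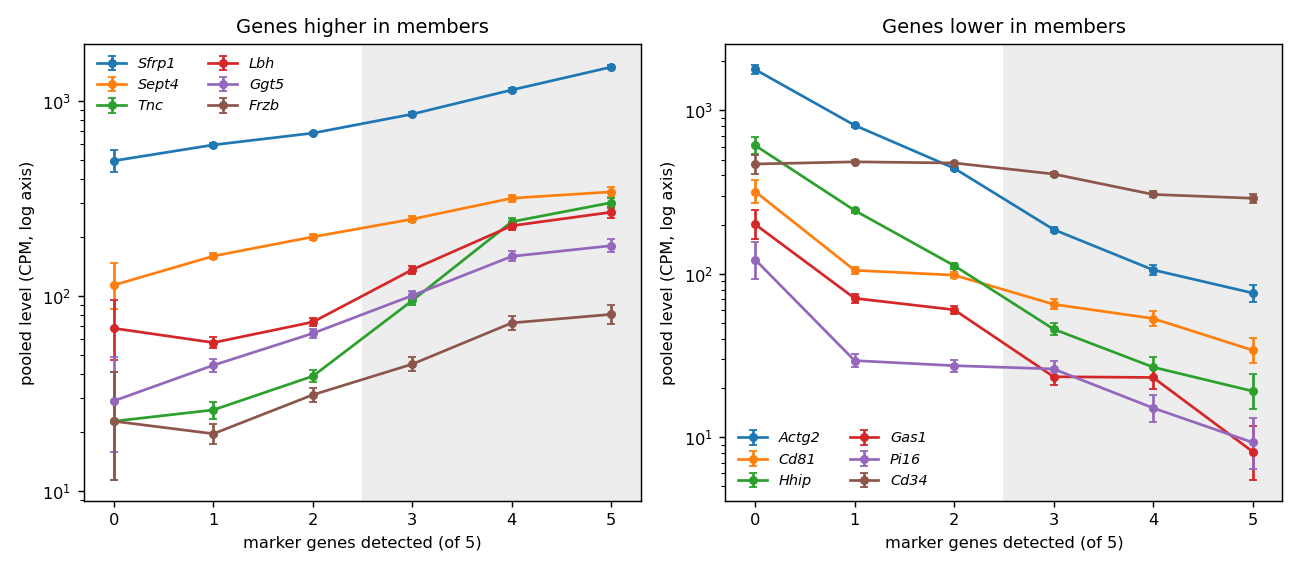
Pooled CPM on a log axis by the number of marker genes detected, among barcodes that met the absence conditions, for 6 genes higher in members (left) and 6 genes lower in members (right), with 95% counting intervals; the shaded part holds the members. Tnc took 38.8 CPM at 2 markers and 302 CPM at 5, whereas Actg2 was at 187 CPM with 3 markers and 76.3 CPM with 5.

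Matrix lists showed small differences, mostly upward for collagens and basement membrane and mixed for the rest. Of 13 interstitial collagen and fibronectin genes, 12 were above the other kept barcodes and none was 2-fold different, with a median log2 ratio of 0.21. Col12a1 stood at 185 CPM in members and 135 CPM in the others, Col6a2 at 801 against 628 CPM, and Col14a1, the exception, at 165 against 249 CPM. Of 12 measured basement membrane genes, 9 were above, with a median of 0.21, led by Col18a1 at 440 against 299 CPM. In the elastic fibre list of 12, 7 genes were above and 5 below: Fbln5 stood at 388 against 264 CPM and Mfap4 at 1392 against 958 CPM, while Mfap5 stood at 275 against 457 CPM. Of the small leucine-rich proteoglycans, 3 were above and 4 below, with a median of -0.18, and of 12 measured matrix proteases and inhibitors, 6 were above and 6 below.

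Of the 4 R-spondins, which amplify Wnt signalling in stem cells, Rspo1 stood at 25.1 CPM in members and 29.5 CPM in the other kept barcodes and Rspo3 at 20.4 against 23.7 CPM, and the remaining 2 were under 20 CPM. Of 4 measured Wnt ligands, 3 were above the others, with Wnt4 at 223 against 185 CPM. Of 5 measured Wnt antagonists, Sfrp1 and Frzb were more than 1.5-fold higher and Sfrp4 and Sfrp2 more than 1.5-fold lower, Sfrp2 at 115 against 186 CPM. Bmp4, the main BMP ligand of the list by level, stood at 984 against 811 CPM, and the BMP antagonist Grem1 at 162 against 196 CPM. None of the 5 BMP ligands (2 above, 3 below), 3 BMP antagonists (1 above, 2 below) or 3 EGF family ligands (all below, median log2 ratio -0.26) at 20 CPM was 2-fold different. Map3k2 itself stood at 35.9 against 36.9 CPM, Klf2 at 765 against 955 CPM and Klf4 at 325 against 523 CPM.

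Chemokines split into higher and lower genes. Of 13 measured, Ccl8 and Ccl11 were more than 1.5-fold higher and Cxcl1, Cxcl2 and Ccl7 more than 1.5-fold lower. Ccl11, the eosinophil attractant eotaxin, stood at 751 CPM in members and 498 CPM in the other kept barcodes, and Cxcl12 at 3041 against 2270 CPM. Cxcl1, a neutrophil attractant, stood at 188 against 420 CPM, and Ccl7 at 84.1 against 227 CPM. Of 11 measured cytokines and receptors, Il34 was more than 1.5-fold higher, and Il6 and Il33 were at least 2-fold lower, Il33 at 17.3 against 46.7 CPM. Complement C3 stood at 492 against 1023 CPM.

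Of 8 prostaglandin genes, 6 were above the other kept barcodes, with a median log2 ratio of 0.29. Ptgs1, the constitutive cyclooxygenase, stood at 115 CPM in members and 75.7 CPM in the others, and the receptor gene Ptger1 at 47.4 against 26.4 CPM, whereas Ptgs2, the inducible cyclooxygenase, stood at 101 against 131 CPM. Lpl, lipoprotein lipase, stood at 839 against 546 CPM and Apoe at 1679 against 1166 CPM, but of 7 measured lipid-handling genes 4 were above and 3 below, with a median log2 ratio of 0.042. None of the 13 other carboxylesterase genes reached 20 CPM. Hsd11b1, which reactivates glucocorticoids, stood at 407 against 287 CPM, and the metallothionein Mt1 at 1051 against 1549 CPM.

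Immediate early genes, which also respond to tissue dissociation, were mostly lower. Of 15, 13 were below the other kept barcodes, with a median log2 ratio of -0.42, and only Atf3 was 2-fold lower, at 230 CPM in members and 465 CPM in the others. Fos stood at 2284 against 3053 CPM. Within the members, Fos varied more than this, between 1846 CPM in members of cluster 1 and 4794 CPM in those of cluster 5, clusters that are described next. The part of dissociation in the lower cytokine and chemokine levels was not tested.

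**Figure D4:**
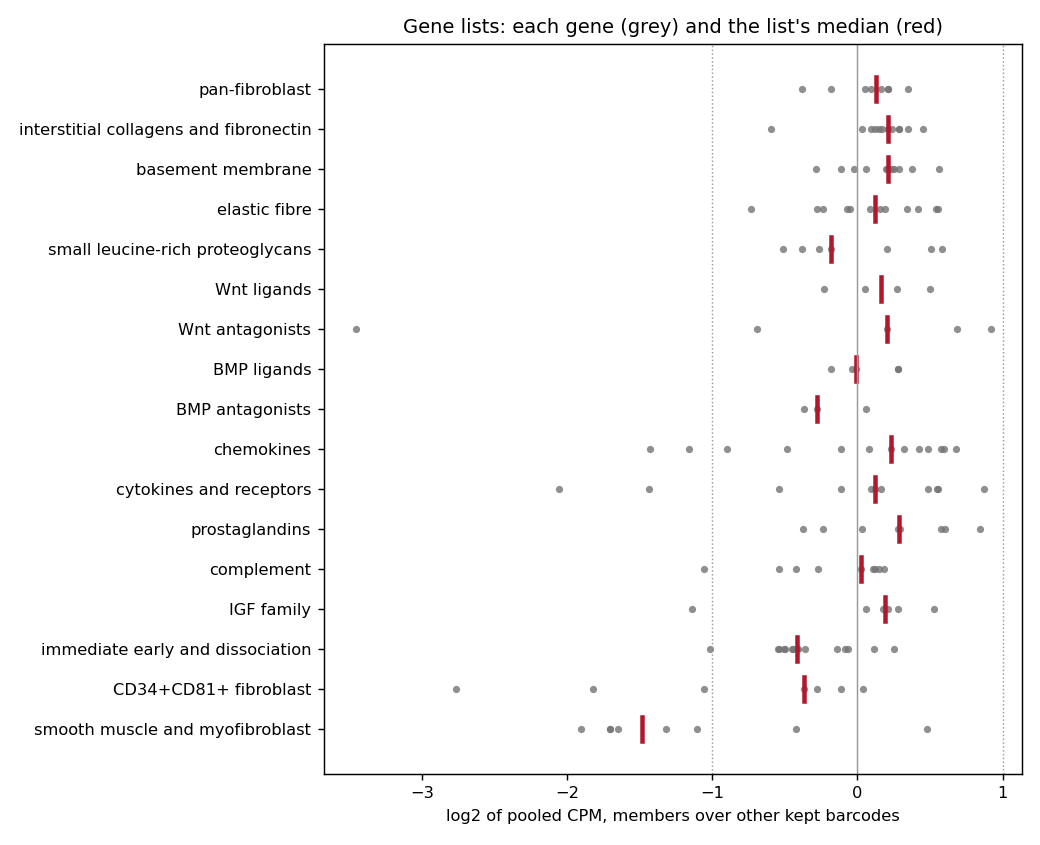
Log2 ratio of pooled CPM, members over other kept barcodes, for each gene with at least 20 CPM in either group (grey points) and the median of its list (red bar) in 17 gene lists; dotted lines mark 2-fold. The smooth muscle list has the lowest median, -1.48, and collagen and basement membrane genes cluster just above 0.

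The members did not form 1 group. In a space of 30 principal components computed without the 10 rule genes, 52.1% ± 26.3 (SD over 3374 members) of a member's 15 nearest neighbours were members, against 22.3% ± 20.2 (SD over 8002 barcodes) for the other kept barcodes. Clustering in that space gave 8 clusters. Cluster 3 held 2143 barcodes, of which 1566 (73.1%) were members, and these were 46.4% of all members. Its leading genes by ratio to the rest were Kcnk2, Tnc, Lbh, Adamdec1 and Ces1d, although 3 of these took no part in the clustering. A further 687 members lay in cluster 1 (20.4% of members), which Spock3 and Hapln1 led, 486 in cluster 4 (14.4%), which Ces1f, Lcn2 and Nrg1 led, and 427 in cluster 2 (12.7%), which Cxcl13 and Mgp led. Cluster 6, led by Myh11 and Actc1, held 130 members, cluster 5, led by Ptx3 and Pcolce2, 62, cluster 7, led by the mesothelial gene set of Bnc1, Lrrn4 and Msln, 14, and cluster 8 held 2.

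**Figure D5:**
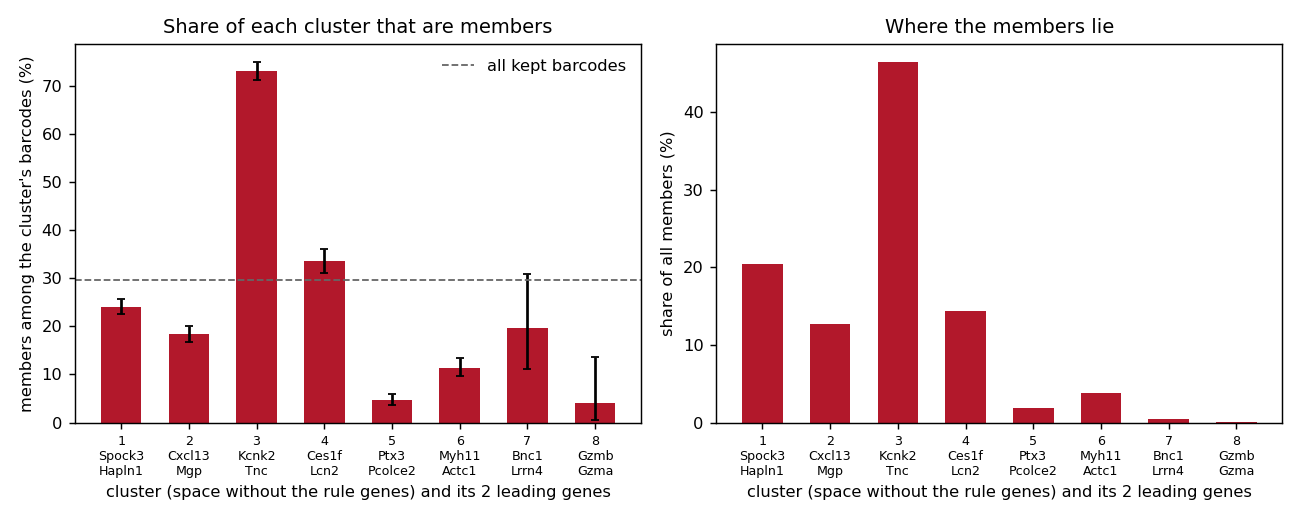
Share of each cluster's barcodes that were members with 95% binomial intervals (left; the dashed line is the 29.7% over all kept barcodes) and share of all members in each cluster (right), with the 2 leading genes of each cluster under its number. Cluster 3 stands at 73.1% on the left and holds 46.4% of the members on the right, and clusters 1, 2 and 4 hold most of the remainder.

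Members of different clusters differed widely in the genes that were higher among all members. Only the rule genes were left out of the clustering. Differences between clusters in the other genes are therefore partly built in and only describe the clusters. Tnc was at 283 CPM in members of cluster 3, 159 CPM in those of cluster 4, 68.6 CPM in those of cluster 2 and 21.1 CPM in those of cluster 1. Kcnk2 was at 255 CPM in members of cluster 3, 78.1 CPM in those of cluster 2, 56.9 CPM in those of cluster 4 and 22.4 CPM in those of cluster 1. Lbh was at 283 CPM in members of cluster 3 and 65.3 CPM in those of cluster 1. Cd34 was at 596 CPM in members of cluster 1, 555 CPM in those of cluster 2, 293 CPM in those of cluster 3 and 124 CPM in those of cluster 4. Cxcl13 was at 1142 CPM in members of cluster 2 and 280 CPM in those of cluster 3. Il34 was highest in members of cluster 4, at 109 CPM, against 55.7 CPM in those of cluster 3. Acta2 was at 7073 CPM in the members of cluster 6.

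Members were also set against the other barcodes of their own cluster. Within cluster 3, 1 gene was at least 2-fold higher and 7 at least 2-fold lower, and 21 of the 25 named higher genes stayed above a ratio of 1, with a median ratio of 1.11. Tnc had a ratio of 1.46 there and Lbh 1.14, while Alpl had 0.92. In clusters 1, 2 and 4, 24, 25 and 22 of the 25 were above 1, with median ratios of 1.19, 1.44 and 1.13. In cluster 2, where 9 genes were at least 2-fold higher and 5 lower, Tnc had a ratio of 7.25, above its ratio over all barcodes. Its levels there were low, at 68.6 CPM in members and 9.46 CPM in the others, and 16.4% of the members of cluster 2 had a UMI of it. In clusters 5 and 6, with only 62 and 130 members, 21 and 25 of the 25 were above 1, with median ratios of 1.69 and 1.71. There 198 and 113 genes were at least 2-fold higher and 169 and 35 at least 2-fold lower. Shares of the genes tested were not computed within clusters, and so few members give few UMIs per gene. In cluster 6 the median depth was 9375.5 UMIs in members and 5644.5 in the others, and in cluster 5 it was 5526 and 5596. The part of depth in these counts was not tested. Of the 15 named lower genes, 13, 15, 13, 13, 11 and 11 were below 1 in clusters 1 to 6. In cluster 1, the higher gene below 1 was Fbln7, with a ratio of 0.90 (0.74 to 1.08). Against all other kept barcodes, the 1566 members of cluster 3 alone had 48 genes at least 2-fold higher and 150 at least 2-fold lower, where all members had 5 and 58. The cluster was drawn from these same counts, so larger numbers are partly built in, and the shares of genes tested were not computed.

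The members were also set against groups chosen as most alike by their labels, and their likeness was not measured. These groups were picked by UMIs of their own genes alone, without a fibroblast condition, and hold no members. Against 142 barcodes with at least 3 of Ces1f, Ces1g, S1pr3 and Ch25h, 136 genes (2.31%) were at least 2-fold higher in members and 171 (2.85%) at least 2-fold lower. Cd34 stood at 359 CPM in members and 67.7 CPM in that group, Col14a1 at 165 against 32.2 CPM and Igfbp6 at 141 against 29.0 CPM. Acute phase and inflammatory genes ran the other way, Saa3 at 358 against 2846 CPM, Hp at 44.0 against 499 CPM, Lcn2 at 22.3 against 182 CPM and Il11 at 19.4 against 176 CPM. The group had more Adamdec1 and Ces1d than members did: Ces1d stood at 445 CPM in members and 830 CPM in that group. Its median depth was 7815.5 UMIs, against 6361 in members.

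Against 1419 barcodes with Ebf1, 211 genes (3.58%) were at least 2-fold higher in members and 220 (3.95%) at least 2-fold lower. Adap2 stood at 52.1 CPM in members and 10.8 CPM in that group, Igfbp3, an IGF carrier, at 1594 against 403 CPM and Agt, angiotensinogen, at 208 against 52.6 CPM. Ptx3 stood at 4.52 against 365 CPM, Sfrp4 at 5.03 against 231 CPM, Pcolce2, a collagen-processing enhancer, at 3.23 against 185 CPM and the transcription factor Prrx1 at 1.72 against 58.9 CPM. Kcnk2 did not set these groups apart by much, at 141 against 105 CPM, and Fndc1 was lower in members, at 131 against 186 CPM. Of the markers, Adamdec1, at 7058 against 1704 CPM, and Scube1, at 193 against 44.7 CPM, differed most. Members were chosen by these markers and by having no Ebf1, so the rule shapes these differences. The remaining group, defined by at least 2 of Foxl1, Sox6 and Wif1, held only 22 barcodes. There 608 genes (10.3%) were at least 2-fold higher in members and 643 (10.8%) at least 2-fold lower, with too few UMIs for its single genes to be described.

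Nearly all genes named as higher in members had an open promoter in each sorted population, as did nearly all expressed genes. Of the 25, 24 had a MRISC peak within 1 kb of a transcription start, 25 a CD34 SP peak, 25 a CD138 peak and 24 a Myofibroblast peak, and 23 (92%) had one in all 4, against 97.3% of genes with at least 20 CPM in either group and 59.3% of all protein-coding genes. In the same order, the shares were 98.9%, 99.1%, 98.7% and 97.9% of genes with at least 20 CPM in either group, and 68.6%, 66.3%, 69.8% and 66.8% of all protein-coding genes. Of the 15 named lower genes, 14, 15, 14 and 12 had a promoter peak in the same order of populations, and 10 (66.7%) had one in all 4. Peaks that the authors listed as specific to a population lay in the gene windows (gene body with 10 kb on both sides) of the 25 at 5.89, 5.48, 6.56 and 6.71 per 100 kb in that order, against 5.78, 5.19, 6.18 and 5.70 per 100 kb over the expressed genes. For the 15 lower genes the values were 8.68, 3.42, 8.68 and 9.47.

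With the populations again in this order, the Adamdec1 window held 0, 6, 3 and 1 specific peaks, and Kcnk2 had 16, 5, 16 and 18. Ces1d had 2, 1, 4 and 2, Fndc1 9, 5, 10 and 8, and Scube1 8, 10, 12 and 15. The absence gene Ebf1 had 65, 7, 30 and 20. These windows differ in length, the lists have no replicate, and the sorted cells came from other animals than the members did.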

How the data were processed

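The members and gene lists were chosen with earlier results of these data known. The authors deposited UMI counts (whole numbers, genes by barcodes) and used Cell Ranger and Seurat on mm10, per the submitters' processing notes. The file header names software version 3.0.0. The deposited peak lists give the authors' score per peak, used only to rank peaks within a list; the sources used here give neither the peak caller nor the pooling of libraries, and the read depth behind the peaks is unknown. Of 11484 barcodes and 31053 genes, 11376 barcodes were kept and 108 left out; no doublet caller was run.

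Counts were pooled over barcodes and divided by all UMIs (CPM). Intervals are exact (Poisson, Clopper-Pearson, conditional binomial for ratios), at 95%. A gene was called at 2-fold with at least 20 CPM in the higher group. Genes named are the rule genes and the 25 highest and 15 lowest ratios with at least 50 CPM in the higher group. Also named are 8 of each against each group chosen by its label. Mitochondrial and ribosomal protein genes were left out of these rankings. Listed genes past 2-fold or of high level are named too. Ccdc3, Wfdc13, Il1r2, Spink4, Agr2 and Jchain were added after their values were seen. Of the 25, 1 is counted but not reported here by name. Principal components (30, from 2000 variable genes without the rule genes), 15 neighbours and Leiden clustering (resolution 0.5) used scanpy 1.11.5 and leidenalg 0.10.2. Peaks were overlapped with 21938 protein-coding genes of GENCODE on 21 chromosomes, with positions counted from 1. Promoters came from RefSeq, which held 34 of 50 named genes. Of the listed genes, 2 were not matched by name. The ratio code was tested on simulated data.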

Additional observations from a re-analysis of the deposited data

How the results depend on the processing

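No paired analysis was possible because the single-cell data are 1 library and each sorted population has 1 peak list, so no replicate numbers are shared. Genes at least 2-fold higher, at least 2-fold lower and the share of kept barcodes that are members were 5, 58 and 29.7% as reported. With at least 2 markers they were 0, 56 and 56.6%, and with at least 4 markers 20, 70 and 13.0%. They were 5, 33 and 35.0% without the Ebf1 condition, 30, 68 and 34.2% without the condition on Ces1f, Ces1g, S1pr3 and Ch25h, and 24, 67 and 19.8% after thinning to 3000 UMIs. Without the deepest 5% of barcodes 8 genes were higher, and with a mean of per-barcode CPM 8. Against 7335 other barcodes that held at least 5 of the 8 pan-fibroblast markers, 17 were higher. These barcodes had fewer than 2 markers each of immune, epithelial, mesothelial and endothelial cells, but smooth muscle barcodes were not left out of them. With no CPM floor 1417 were higher and 3260 lower, with a floor of 50 CPM 2 and 33, and at 1.5-fold 64 and 134. Alternatives chosen after seeing the data gave 9 higher, 44 lower and 30.7% without barcodes with at least 4 smooth muscle markers, 48, 150 and 13.8% for members in cluster 3, and 1 and 7 within cluster 3. Log2 ratios turned over without the Ebf1 condition for Pi16 (0.079), Has1 (0.15) and Prss23 (0.21), without smooth muscle barcodes for Tinagl1 (0.16), Myh11 (0.068) and Lmod1 (0.059), and within cluster 3 for Col27a1 (-0.074), Mab21l2 (-0.14), Alpl (-0.13), Ptx3 (0.63) and Lmod1 (0.037); the cause was not tested. Within clusters 1 to 6, 24, 25, 21, 22, 21 and 25 of the 25 higher genes were above a ratio of 1 and 13, 15, 13, 13, 11 and 11 of the 15 lower ones below it. Under the other alternatives that set members against barcodes of all clusters, the higher genes named here were above 1 and the lower ones below it. The share of member neighbours was 51.6% with 30 neighbours and 51.3% with 15 components, and 24, 23 and 21 of the 25 genes had a promoter peak in all 4 populations with a 2 kb promoter window, a 50 kb gene window and peaks above the median score.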
